A study of Homo sapiens with 4 samples.

Results

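TGF-beta and BMP signalling was followed through 49 genes chosen by symbol, from ligands to target genes, in BT549 cells that had been sorted on surface NRP2. All 49 symbols matched 1 row each among the 31681 genes of the count table, and 44 passed the filter on low counts and were tested. BT549 is an established triple-negative breast cancer (TNBC) cell line of mesenchymal character, and NRP2 is a surface co-receptor for VEGF-C and class 3 semaphorins. NRP2-high cells (2 libraries) were set against NRP2-low cells (2 libraries), both from the same line, and the labels give no treatment or genetic change for either. The gates of the sort and whether libraries within a group were grown as separate cultures are not given in the sources used here, so the p-values speak for the variation among these libraries alone, and that variation may be purely technical.

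The pathway has 2 main branches. TGF-beta and activin ligands act through type II and type I serine/threonine kinase receptors that phosphorylate SMAD2 and SMAD3, while BMP ligands act through related receptors that phosphorylate SMAD1, SMAD5 and SMAD9, and both kinds of SMAD enter the nucleus with SMAD4. Outside the cell, TGF-beta is stored in latent form on LTBP proteins, and BMPs and activins are bound by secreted antagonists such as noggin and follistatin. In breast cancer cells TGF-beta is known for driving mesenchymal change, and the *ID* genes are classic BMP targets.

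Total counts were 18727299 and 20585102 in the NRP2-high libraries and 19183827 and 18165923 in the NRP2-low libraries, at which 3 counts equal 0.151 to 0.163 CPM (counts per 1e6 of the effective library size). *NRP2* itself had 2588 and 2839 counts in NRP2-high cells versus 195 and 166 in NRP2-low cells, as the labels say. The mesenchymal markers *VIM* and *ZEB1* had log2 fold changes of 0.09 and 0.13 and did not pass, *CDH2* fell by 0.59, and *EPCAM* and *CDH1* stayed at or below 5 counts per library. Among epithelial keratins, *KRT19* rose by 5.19 while *KRT8* and *KRT18* were at -2.78 and -3.39 on the same scale, and the part of these keratins in the results was not tested. Each of these keratins passed the filter on low counts only through the population where it was higher. Mitochondrially encoded genes made up 6.92% and 9.16% of all counts in NRP2-high libraries, against 5.57% and 5.85% in NRP2-low libraries. The NRP2-high libraries differed from each other more than the NRP2-low libraries did (chi-square per degree of freedom 10.2 against 1.59). Fewer expressing cells and less RNA per cell cannot be told apart in such bulk libraries.

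Of the 44 tested members, 20 were higher in NRP2-high cells, 15 were lower and 9 did not pass edgeR's quasi-likelihood test at an adjusted p under 0.05. Over all 15083 tested genes, 28.9% were called higher and 27.7% lower, or 56.5% in either direction, compared with 79.5% of the tested members. A change of at least 2-fold was called for 11 higher and 7 lower members, 40.9% of those tested, whereas 7.62% of all tested genes rose and 8.67% fell by as much (16.3% in either direction). These members include *INHBB* and *BMPR1B*, which passed the filter on low counts only through NRP2-high and NRP2-low cells, respectively. The median absolute log2 fold change was 0.56 over the tested members and 0.39 over all tested genes. These shares describe a list chosen with earlier results of these data known, and no test was made of the list itself. The changes of at least 2-fold were spread over ligands, LTBPs, receptors, co-receptors with *BAMBI*, antagonists and *ID* genes, whereas no SMAD or SMURF gene among the members, nor *SKI* or *SKIL*, reached 2-fold.

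**Figure D1:**
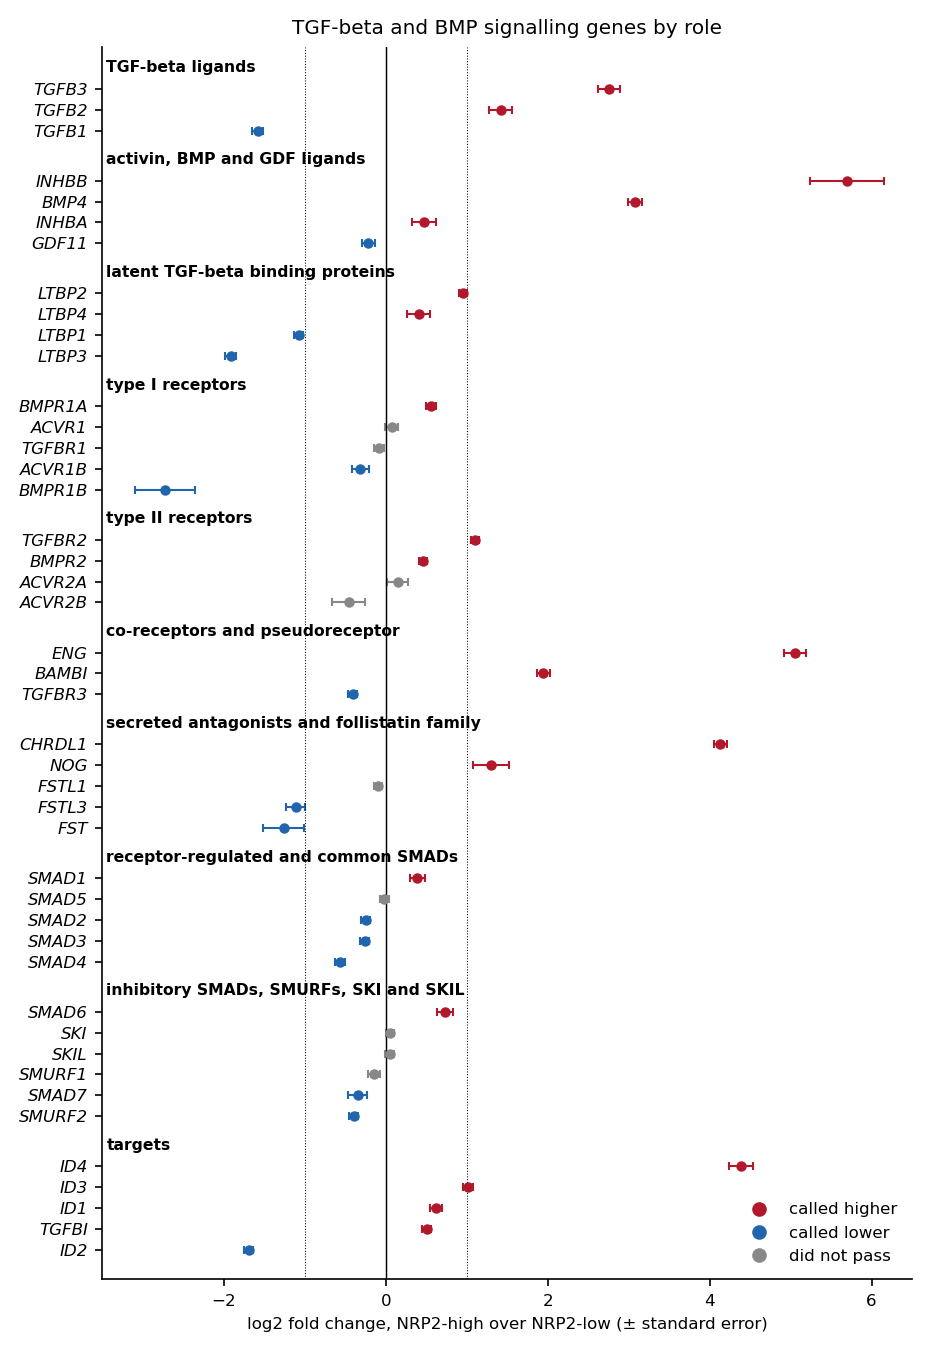
Log2 fold change (NRP2-high over NRP2-low, x axis, edgeR) of the 44 tested members, ordered by role down the page, with standard errors as bars and dotted lines at 2-fold. Called members spread from 5.70 for INHBB to -2.73 for BMPR1B, and the SMAD genes among the members lie between 0.73 and -0.57. INHBB and BMPR1B passed the filter on low counts only through the population where they were higher.

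The 3 TGF-beta ligand genes moved apart. *TGFB1* (ENSG00000105329.9; chromosome 19, 41301587 to 41353911, minus strand of hg38), which encodes the main TGF-beta of most tissues, had 441 and 478 counts in NRP2-high cells versus 1412 and 1408 in NRP2-low cells. It fell to 24.3 ± 0.460 CPM in NRP2-high cells, against 72.8 ± 2.79 CPM in NRP2-low cells (SD, n = 2 each), 2.99-fold lower in NRP2-high cells (log2 fold change -1.58, standard error 0.07, adjusted p = 1.6e-08 from edgeR). The groups stood far apart relative to the spread within each. *TGFB3* had 332 and 342 counts in NRP2-high cells versus 49 and 53 in NRP2-low cells, 6.76-fold higher (log2 fold change 2.76, standard error 0.14, adjusted p = 4.5e-08). *TGFB2* had 322 and 444 counts in NRP2-high cells versus 150 and 143 in NRP2-low cells, a rise of 1.42 on the log2 scale (standard error 0.14, adjusted p = 9.3e-06). Its NRP2-high libraries differed from each other, but both lay above both NRP2-low libraries.

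Per length, the mix of TGF-beta ligand transcripts changed with these moves. *TGFB1* made up 51.2% and 48.7% of the summed TPM (transcripts per 1e6 transcripts, a level per length) of the 3 ligand genes in NRP2-high libraries, against 91.8% and 91.9% in NRP2-low libraries. *TGFB3* made up 25.4% and 22.9% in NRP2-high libraries and 2.10% and 2.28% in NRP2-low libraries. The summed level of the 3 was 50.4 and 49.1 TPM in NRP2-high libraries, against 87.7 and 92.4 TPM in NRP2-low libraries, so the groups did not overlap in mix or in sum. A test of 2 against 2 libraries outside the fit cannot give an exact two-sided permutation p below 0.333, so such shares are given as values. *TGFB1* lies across *HNRNPUL1*, a gene on the opposite strand with 9194 and 9516 counts in NRP2-high cells versus 6119 and 5792 in NRP2-low cells. In GENCODE v44 the exons of *TGFB1* share 215 of their 3264 bases (6.59%) with exons of that gene. Whether the authors counted by strand is not given in the sources used here, and the part of this overlap in the fall was not tested.

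Among activin, BMP and GDF ligands, *BMP4* and *INHBB* rose. *BMP4*, which encodes a BMP that patterns mesoderm and acts on many epithelia, had 1795 and 1987 counts in NRP2-high cells versus 257 and 202 in NRP2-low cells. This was 100.1 ± 3.38 CPM in NRP2-high cells and 11.8 ± 1.53 CPM in NRP2-low cells (SD, n = 2 each), 8.45-fold higher (log2 fold change 3.08, standard error 0.09, adjusted p = 6.4e-10 from edgeR). *INHBB*, which encodes the beta-B subunit of activin B, had 107 and 108 counts in NRP2-high cells versus 0 and 4 in NRP2-low cells (log2 fold change 5.70, standard error 0.46, adjusted p = 1.6e-06). It passed the filter on low counts only through NRP2-high cells, so its direction was largely set by the filter. The size of the *INHBB* change rests on the few NRP2-low counts: it was 4.69 without NRP2-low replicate 1 and 9.78 without NRP2-low replicate 2, where the remaining NRP2-low library had 0 counts and the value depends on the prior count of the fit. *INHBA*, which encodes the beta-A subunit of activin A, had 200 and 188 counts in NRP2-high cells versus 131 and 156 in NRP2-low cells (log2 fold change 0.47, standard error 0.15, adjusted p = 0.019). *GDF11* fell by 0.21 (standard error 0.08, adjusted p = 0.034), with 540 and 562 counts in NRP2-high cells versus 662 and 649 in NRP2-low cells. Both of these smaller calls were lost without NRP2-low replicate 1 (log2 fold change 0.30, adjusted p = 0.22 for *INHBA*; -0.25, adjusted p = 0.12 for *GDF11*), and that of *GDF11* also without NRP2-low replicate 2 (-0.19, adjusted p = 0.25).

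*BMP2*, *BMP6* and *BMP7* were too low to test. *BMP2* had 1 and 5 counts in NRP2-high cells versus 2 and 2 in NRP2-low cells, *BMP6* had 2 and 2 in NRP2-high cells against 1 and 0 in NRP2-low cells, and *BMP7* had 0 and 0 in NRP2-high cells against 1 and 0 in NRP2-low cells, too few for a difference between the populations to be detected. The summed level of the 7 ligand genes of this group was 133.2 and 124.3 TPM in NRP2-high libraries, against 32.6 and 31.4 TPM in NRP2-low libraries. *BMP4* held 82.8% and 83.9% of that sum in NRP2-high libraries and 47.2% and 40.7% in NRP2-low libraries, where *GDF11* held 43.3% and 46.5%. *BMP4* was thus the leading ligand transcript of the group in NRP2-high cells, while in NRP2-low cells *BMP4* and *GDF11* were at like levels, with *BMP4* above in replicate 1 and below in replicate 2.

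The LTBP genes encode latent TGF-beta binding proteins and related matrix proteins, and 2 of the 4 were higher and 2 lower. *LTBP3* had 403 and 437 counts in NRP2-high cells versus 1637 and 1613 in NRP2-low cells (log2 fold change -1.92, standard error 0.07, adjusted p = 3.1e-09). *LTBP1* had 2127 and 2328 counts in NRP2-high cells versus 4912 and 4715 in NRP2-low cells (log2 fold change -1.08, standard error 0.05, adjusted p = 2.4e-08). In the other direction, *LTBP2*, whose product sits on microfibrils and does not bind latent TGF-beta, had 10089 and 10250 counts in NRP2-high cells versus 5517 and 5213 in NRP2-low cells (log2 fold change 0.96, standard error 0.05, adjusted p = 4.8e-08). *LTBP2* was the most abundant of the 4 per length in NRP2-high cells, with 75.1% and 74.2% of their summed TPM, against 41.5% and 40.9% in NRP2-low cells, where *LTBP1* had the largest share (45.9% in both libraries). The summed level differed less, at 279.9 and 245.7 TPM in NRP2-high libraries and 269.8 and 273.5 TPM in NRP2-low libraries, and these ranges overlapped. *LTBP4* was 0.41 higher on the log2 scale (315 and 253 counts in NRP2-high cells, 208 and 232 in NRP2-low cells, adjusted p = 0.035). It had the largest adjusted p among the called members, and the call was lost without NRP2-high replicate 1 (log2 fold change 0.21, adjusted p = 0.15) or NRP2-low replicate 1 (0.28, adjusted p = 0.24).

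**Figure D2:**
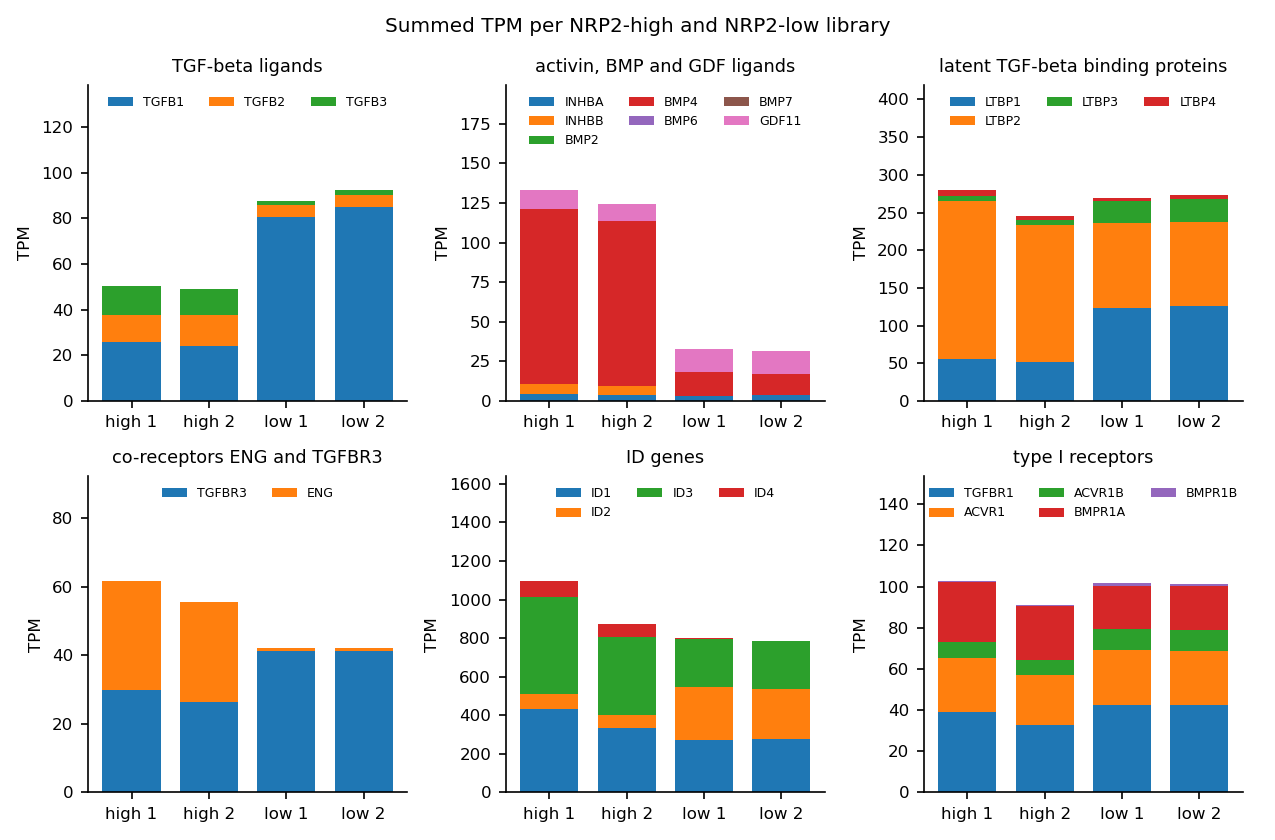
Summed TPM (y axis, from 0) of 6 families in each NRP2-high and NRP2-low library, stacked by gene. TGFB1 fills 51.2% and 48.7% of the TGF-beta ligand bar in NRP2-high libraries and 91.8% and 91.9% in NRP2-low libraries, while the type I receptor bars change less in mix.

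Of the 9 type I and type II receptor genes, *TGFBR2* and *BMPR1B* changed by at least 2-fold. *TGFBR2*, the type II receptor that binds TGF-beta, had 6651 and 7434 counts in NRP2-high cells versus 3466 and 3248 in NRP2-low cells, 2.15-fold higher (log2 fold change 1.10, standard error 0.05, adjusted p = 2.1e-08). *TGFBR1*, its type I partner, had 1416 and 1395 counts in NRP2-high cells versus 1566 and 1484 in NRP2-low cells, and its log2 fold change of -0.08 (standard error 0.06) did not pass (adjusted p = 0.29), though it reached the threshold without NRP2-high replicate 1 (-0.12, adjusted p = 0.05 after rounding). *TGFBR2* was the most abundant type II receptor transcript in both populations, at 84.0% and 84.5% of the summed TPM of the 4 genes in NRP2-high libraries and 77.0% and 76.5% in NRP2-low libraries. *BMPR2*, the BMP type II receptor, rose by 0.46 (2901 and 3126 counts in NRP2-high cells, 2299 and 2205 in NRP2-low cells, standard error 0.05, adjusted p = 2.1e-05). The activin type II receptors did not pass: *ACVR2A* had 152 and 156 counts in NRP2-high cells versus 146 and 139 in NRP2-low cells (log2 fold change 0.15, adjusted p = 0.36), and *ACVR2B* had 59 and 76 in NRP2-high cells against 86 and 104 in NRP2-low cells (-0.46, adjusted p = 0.073). *ACVR2B* had the smallest adjusted p among the members that did not pass, and it was called without NRP2-high replicate 2 (log2 fold change -0.61, adjusted p = 0.012). Exons of *ACVR2A* share 6.68% of their bases with exons of *ORC4* on the opposite strand, which had 475 and 535 counts in NRP2-high cells versus 744 and 718 in NRP2-low cells, and the part of this overlap was not tested.

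Of the BMP type I receptors, *BMPR1B* fell and *BMPR1A* rose. *BMPR1B* had 5 and 8 counts in NRP2-high cells versus 52 and 38 in NRP2-low cells (log2 fold change -2.73, standard error 0.37, adjusted p = 9.1e-05 from edgeR). It passed the filter on low counts only through NRP2-low cells, so its direction was largely set by the filter. *BMPR1A* had 1772 and 1840 counts in NRP2-high cells versus 1276 and 1239 in NRP2-low cells (log2 fold change 0.56, standard error 0.06, adjusted p = 1.1e-05). Per length, *BMPR1B* was at 0.146% and 0.226% of the summed type I receptor TPM in NRP2-high libraries and 1.497% and 1.16% in NRP2-low libraries, while *BMPR1A* was at 28.7% in both NRP2-high libraries and 20.3% and 20.9% in NRP2-low libraries. The fall of *BMPR1B* was therefore a large relative change of a minor transcript. *ACVR1*, which encodes the BMP and activin receptor ALK2, did not pass (548 and 598 counts in NRP2-high cells, 582 and 535 in NRP2-low cells, log2 fold change 0.07, adjusted p = 0.45). *ACVR1B*, the activin type I receptor, fell by 0.32 (232 and 258 counts in NRP2-high cells, 317 and 308 in NRP2-low cells, adjusted p = 0.023), a call lost without NRP2-low replicate 1 (-0.35, adjusted p = 0.091) or replicate 2 (-0.30, adjusted p = 0.15).

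*ENG* had one of the largest changes of the pathway. It encodes endoglin, a co-receptor of TGF-beta family ligands best known from endothelial cells. *ENG* (ENSG00000106991.13; chromosome 9, 127815012 to 127854756, minus strand of hg38) had 660 and 709 counts in NRP2-high cells versus 20 and 22 in NRP2-low cells. It was at 36.2 ± 0.456 CPM in NRP2-high cells and 1.09 ± 0.117 CPM in NRP2-low cells (SD, n = 2 each), 33.2-fold higher (log2 fold change 5.05, standard error 0.14, adjusted p = 5.3e-10 from edgeR). The endothelial marker *PECAM1* had 8 and 14 counts in NRP2-high cells versus 1 and 1 in NRP2-low cells. *KDR*, another such marker, reached no more than 1 count, and both were too low to test. *TGFBR3*, which encodes betaglycan, the co-receptor that presents TGF-beta2 and also binds inhibins, was lower, with 1368 and 1414 counts in NRP2-high cells versus 1948 and 1835 in NRP2-low cells (log2 fold change -0.41, standard error 0.06, adjusted p = 1e-04). Of the summed TPM of both co-receptors, *ENG* held 51.6% and 52.6% in NRP2-high libraries, against 2.22% and 2.58% in NRP2-low libraries. *BAMBI*, which encodes a receptor-like protein without a kinase domain that blocks TGF-beta family signalling, had 1340 and 1596 counts in NRP2-high cells versus 395 and 384 in NRP2-low cells, 3.86-fold higher (log2 fold change 1.95, standard error 0.08, adjusted p = 9.2e-09).

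Among the 49 genes, the BMP antagonist genes *CHRDL1* and *NOG* rose, and the activin antagonist genes *FST* and *FSTL3* fell. *CHRDL1* (ENSG00000101938.14; chromosome X, 110673856 to 110795765, minus strand of hg38), which encodes chordin-like 1, an antagonist of BMP4, had 2105 and 2294 counts in NRP2-high cells versus 128 and 129 in NRP2-low cells. This was 116.4 ± 2.65 CPM in NRP2-high cells and 6.64 ± 0.304 CPM in NRP2-low cells (SD, n = 2 each), 17.5-fold higher (log2 fold change 4.13, standard error 0.08, adjusted p = 5.6e-11 from edgeR). *NOG*, which encodes noggin, had 85 and 76 counts in NRP2-high cells versus 37 and 30 in NRP2-low cells (log2 fold change 1.30, standard error 0.22, adjusted p = 0.00047). *CHRDL1* and its target *BMP4* were thus both higher in NRP2-high cells. *FST*, which encodes follistatin, an activin antagonist, had 21 and 22 counts in NRP2-high cells versus 56 and 50 in NRP2-low cells (log2 fold change -1.26, standard error 0.25, adjusted p = 0.0014). *FSTL3*, which encodes a follistatin-like activin antagonist, had 658 and 502 counts in NRP2-high cells versus 1336 and 1245 in NRP2-low cells (log2 fold change -1.11, standard error 0.12, adjusted p = 1.2e-05). Its NRP2-high libraries were apart from each other, at 30.8 ± 7.02 CPM, and both lay below the NRP2-low libraries at 66.6 ± 0.639 CPM (SD, n = 2 each). *FSTL1*, a secreted protein of the same family by sequence, did not pass (32950 and 34751 counts in NRP2-high cells, 38372 and 35799 in NRP2-low cells, log2 fold change -0.09, adjusted p = 0.15), though it was called lower without either NRP2-high library (log2 fold change -0.09 in both, adjusted p = 0.0025 without replicate 1 and 0.0036 without replicate 2). *CHRD* had 0 and 0 counts in NRP2-high cells versus 1 and 0 in NRP2-low cells, and *GREM1*, the gene of gremlin 1, had 0 and 3 in NRP2-high cells versus 4 and 0 in NRP2-low cells, so neither was tested.

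**Figure D3:**
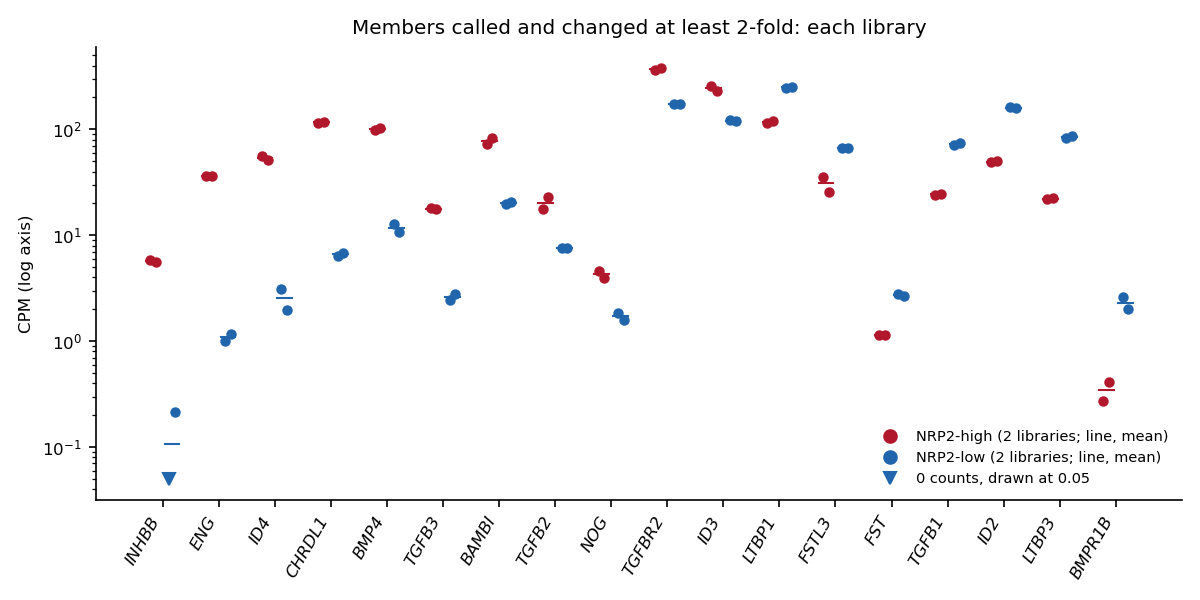
CPM on a log axis (y) in each library for the 18 members that were called and changed at least 2-fold, ordered from the largest rise to the largest fall, with lines for the mean of 2 libraries. No NRP2-high point overlaps the NRP2-low points of the same gene. This says little, since the genes were chosen as called and the groups did not overlap in 78.2% of all tested genes. INHBB had 0 counts in NRP2-low replicate 1.

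The receptor-regulated SMAD genes among the 49 and *SMAD4*, whose products carry the signal into the nucleus, changed by less than 2-fold. *SMAD4*, the common partner, had 1010 and 1015 counts in NRP2-high cells versus 1602 and 1479 in NRP2-low cells (log2 fold change -0.57, standard error 0.06, adjusted p = 1.7e-05). *SMAD2* and *SMAD3*, which carry TGF-beta and activin signals, were both lower. *SMAD2* had 1796 and 2027 counts in NRP2-high cells versus 2388 and 2270 in NRP2-low cells (log2 fold change -0.25, standard error 0.06, adjusted p = 0.0032), and *SMAD3* had 1495 and 1607 in NRP2-high cells versus 1925 and 1875 in NRP2-low cells (-0.26, standard error 0.06, adjusted p = 0.0025). Both of these calls were lost without NRP2-low replicate 2 (-0.25, adjusted p = 0.054 for *SMAD2*; -0.23, adjusted p = 0.068 for *SMAD3*). *SMAD1*, which carries BMP signals, had 460 and 455 counts in NRP2-high cells versus 371 and 346 in NRP2-low cells (log2 fold change 0.39, standard error 0.09, adjusted p = 0.0035), and *SMAD5*, of the same branch, had 2858 and 2763 in NRP2-high cells versus 2991 and 2842 in NRP2-low cells and did not pass (-0.02, adjusted p = 0.84). *SMAD2*, *SMAD3* and *SMAD4* were thus lower and *SMAD1* higher in NRP2-high cells. *SMAD5* was the only tested member whose CPM overlapped between the groups, a count that says little by itself, since the groups did not overlap in 78.2% of all tested genes.

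The feedback inhibitors did not move together. *SMAD6*, an inhibitor of BMP receptors and itself a BMP target, rose by 0.73 (573 and 528 counts in NRP2-high cells, 356 and 325 in NRP2-low cells, standard error 0.10, adjusted p = 7.4e-05). *SMAD7*, which inhibits TGF-beta receptors, fell by 0.35 (236 and 214 counts in NRP2-high cells, 294 and 294 in NRP2-low cells, standard error 0.12, adjusted p = 0.025), and its call was lost without NRP2-high replicate 2 (-0.24, adjusted p = 0.079), NRP2-low replicate 1 (-0.40, adjusted p = 0.065) or NRP2-low replicate 2 (-0.31, adjusted p = 0.15). *SMURF2*, a ubiquitin ligase of this pathway, had 1520 and 1678 counts in NRP2-high cells versus 2176 and 2135 in NRP2-low cells (log2 fold change -0.40, standard error 0.06, adjusted p = 0.00015). *SMURF1*, *SKI* and *SKIL* did not pass, with log2 fold changes of -0.15, 0.05 and 0.05 (adjusted p = 0.12, 0.44 and 0.51). *SKI* and *SKIL* encode corepressors that bind SMADs, and both had 1290 or more counts in every library. *SMURF1* shares 11.7% of its exon bases with exons of *TRRAP* on the opposite strand, which had 2284 and 2503 counts in NRP2-high cells versus 2026 and 1994 in NRP2-low cells, and the part of this overlap was not tested. *SMURF1* itself, the gene of a related ubiquitin ligase, had 586 and 621 counts in NRP2-high cells versus 714 and 656 in NRP2-low cells.

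The *ID* genes encode helix-loop-helix proteins that bind and block other transcription factors, and 3 of the 4 were higher in NRP2-high cells. *ID4* (ENSG00000172201.11; chromosome 6, 19837386 to 19840684, plus strand of hg38) had 1027 and 993 counts in NRP2-high cells versus 62 and 37 in NRP2-low cells. It was at 53.5 ± 3.31 CPM in NRP2-high cells and 2.54 ± 0.810 CPM in NRP2-low cells (SD, n = 2 each), 20.9-fold higher (log2 fold change 4.39, standard error 0.15, adjusted p = 1.7e-09 from edgeR). *ID3* had 4758 and 4471 counts in NRP2-high cells versus 2426 and 2259 in NRP2-low cells, 2.02-fold higher (log2 fold change 1.02, standard error 0.06, adjusted p = 1.9e-07). *ID1* had 2812 and 2528 counts in NRP2-high cells versus 1830 and 1737 in NRP2-low cells (log2 fold change 0.62, standard error 0.07, adjusted p = 3.1e-05). *ID2* went the other way, with 901 and 969 counts in NRP2-high cells versus 3232 and 2969 in NRP2-low cells, 3.23-fold lower in NRP2-high cells (log2 fold change -1.69, standard error 0.06, adjusted p = 1.8e-09). Per length, *ID2* made up 7.08% and 8.14% of the summed *ID* TPM in NRP2-high libraries and 33.9% and 33.4% in NRP2-low libraries, and *ID4* made up 7.59% and 7.84% in NRP2-high libraries against 0.611% and 0.392% in NRP2-low libraries. In NRP2-high cells *ID3* and *ID1* led, with 45.9% and 46.1% for *ID3* and 39.5% and 38.0% for *ID1*, whereas in NRP2-low cells *ID1*, *ID2* and *ID3* each held between 31.2% and 35.0%. *TGFBI*, a TGF-beta induced matrix gene and the most abundant member by CPM in NRP2-high cells, had 43814 and 48910 counts in NRP2-high cells versus 34493 and 32443 in NRP2-low cells (log2 fold change 0.51, standard error 0.06, adjusted p = 2e-05).

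Since the *ID* genes, with *BAMBI* another known target of the pathway, moved in both directions, the 250 bases before their RefSeq start (GRCh38.p14) are shown, 5′ to 3′ on the strand of the gene. Capitals mark CAGAC on either strand (so also GTCTG), the short element that SMAD3 and SMAD4 bind, and GGCGCC, which reads the same on both strands and is bound by SMADs of the BMP branch.
ID4 (chr6:19837120-19837369, plus): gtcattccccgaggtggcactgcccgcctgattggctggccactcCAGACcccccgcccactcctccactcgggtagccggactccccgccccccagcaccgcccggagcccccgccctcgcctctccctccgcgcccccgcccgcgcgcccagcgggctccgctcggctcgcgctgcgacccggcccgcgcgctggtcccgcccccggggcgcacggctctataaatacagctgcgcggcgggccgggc
ID3 (chr1:23559502-23559751, minus): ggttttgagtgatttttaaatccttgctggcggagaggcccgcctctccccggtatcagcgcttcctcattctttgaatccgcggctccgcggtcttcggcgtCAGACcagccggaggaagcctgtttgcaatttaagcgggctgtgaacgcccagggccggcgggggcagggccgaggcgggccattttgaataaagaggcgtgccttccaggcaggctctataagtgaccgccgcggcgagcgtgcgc
ID1 (chr20:31605039-31605288, plus): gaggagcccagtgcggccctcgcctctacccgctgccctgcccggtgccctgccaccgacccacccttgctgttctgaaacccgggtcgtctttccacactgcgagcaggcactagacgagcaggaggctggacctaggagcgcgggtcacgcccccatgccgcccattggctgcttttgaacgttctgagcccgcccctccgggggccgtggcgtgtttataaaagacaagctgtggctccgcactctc
ID2 (chr2:8681806-8682055, plus): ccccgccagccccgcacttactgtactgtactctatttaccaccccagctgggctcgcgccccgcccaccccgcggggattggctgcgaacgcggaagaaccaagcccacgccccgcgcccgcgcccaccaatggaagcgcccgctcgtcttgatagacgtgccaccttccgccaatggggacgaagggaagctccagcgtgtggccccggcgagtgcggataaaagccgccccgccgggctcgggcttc
BAMBI (chr10:28677271-28677520, plus): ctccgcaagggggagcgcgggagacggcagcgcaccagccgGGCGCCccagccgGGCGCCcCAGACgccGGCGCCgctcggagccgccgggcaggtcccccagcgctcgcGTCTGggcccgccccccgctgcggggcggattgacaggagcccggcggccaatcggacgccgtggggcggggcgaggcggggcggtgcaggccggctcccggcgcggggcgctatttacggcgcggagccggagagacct

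The window of *BAMBI* held 3 copies of GGCGCC and 2 of CAGAC, those of *ID3* and *ID4* held 1 CAGAC each, and those of *ID1* and *ID2* held no copy of either. These letters are common in promoters: CAGAC was in 38.0% of all 35116 listed windows of this length and GGCGCC in 16.4%. Among the 77 windows of the 45 members that have an entry, 28 (36.4%) held CAGAC and 21 (27.3%) held GGCGCC. A match describes the reference letters and is not a measured site. Bases outside these windows were not searched, so a window without a copy does not show that the gene lacks such elements.

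Pathway genes outside the 49 moved in both directions as well. From 4 lists of other ligands, receptors, secreted regulators and intracellular regulators, 54 of 63 listed genes had a row and 32 were tested. Of these, 15 were higher (46.9%) and 11 lower (34.4%), against 28.9% and 27.7% of all tested genes. The median log2 fold change was 0.15, against -0.01 over all tested genes. Among the 15 intracellular regulators, 10 were higher (66.7%) and 2 lower (13.3%). *SMAD9*, the third SMAD of the BMP branch, had 508 and 519 counts in NRP2-high cells versus 107 and 89 in NRP2-low cells (log2 fold change 2.43, standard error 0.11, adjusted p = 2.4e-08). *WWP1*, a ubiquitin ligase, and *ZFYVE9*, which encodes the receptor anchor SARA, rose by 1.33 and 1.14, and *TGIF1*, a corepressor gene, fell by 0.43. Of 10 tested secreted regulators, 4 were higher and 4 lower (40.0% each). *FURIN*, a protease that cleaves TGF-beta and BMP precursors, was at 1.10, *BMPER* at 0.73 and *BMP1* at 0.59, while *NBL1* and *CRIM1* fell by 0.69 and 0.49. Of 3 tested receptor genes, the BMP co-receptor *RGMB* fell by 0.67 and *RGMA*, named after its values were seen, rose by 2.06. All 4 tested ligands of these lists were lower, as were 27.7% of all tested genes. They lay at mean log2 CPM below 3 and were named after their values were seen. *GDF6* fell by 1.20, with 72 and 82 counts in NRP2-high cells versus 199 and 165 in NRP2-low cells. *BMP5* (-4.41, standard error 0.85), *AMH* (-3.43) and *GDF15* (-3.26) had at most 8 counts in any NRP2-high library. These 3 passed the filter on low counts only through NRP2-low cells, so their direction was largely set by the filter. The same holds for *NRROS* among the lower secreted regulators and *NEDD4L* among the lower intracellular regulators.

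Response genes outside the members were counted in the same way. Of 21 tested TGF-beta response genes, 14 were higher (66.7%) and 5 lower (23.8%), with a median log2 fold change of 1.08. For comparison, edgeR called 28.9% of the 15083 genes higher and 27.7% lower, and their median was -0.01. The higher response genes include *SNAI1* (10 and 17 counts in NRP2-high cells, 3 and 6 in NRP2-low cells), which passed the filter only through NRP2-high cells. The lower ones include *PDGFB* (16 and 9 counts in NRP2-high cells, 52 and 58 in NRP2-low cells), which needed the NRP2-low libraries to pass. The directions of *SNAI1* and *PDGFB* were thus largely set by the filter. The smooth muscle actin gene *ACTA2* had 2264 and 2519 counts in NRP2-high cells versus 57 and 52 in NRP2-low cells (log2 fold change 5.49, standard error 0.09, adjusted p = 3.6e-11), and the collagen genes *COL1A1* and *COL4A1* rose by 2.33 and 2.30. The lower members were led by *CDKN1A*, the cell cycle inhibitor p21, with 86 and 58 counts in NRP2-high cells versus 393 and 356 in NRP2-low cells (log2 fold change -2.34), followed among well expressed genes by *BHLHE40* (-0.89) and *CDH2* (-0.59). *CCN2*, a classic direct target named here after its values were seen, had 6835 and 7625 counts in NRP2-high cells versus 4032 and 3710 in NRP2-low cells (log2 fold change 0.94, adjusted p = 7.6e-08). Of 7 tested BMP response genes, 4 were higher and none lower (the adjusted p of each of the other 3 was 0.10 or more), with *RUNX2* at 1.36 and *GATA3* at 1.22 among the higher. The called share of this short list, 57.1%, was close to the 56.5% of all tested genes called in either direction. *ATOH8*, another BMP target, had 1219 and 975 counts in NRP2-high cells versus 1144 and 1083 in NRP2-low cells and did not pass (0.02, adjusted p = 0.90).

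**Figure D4:**
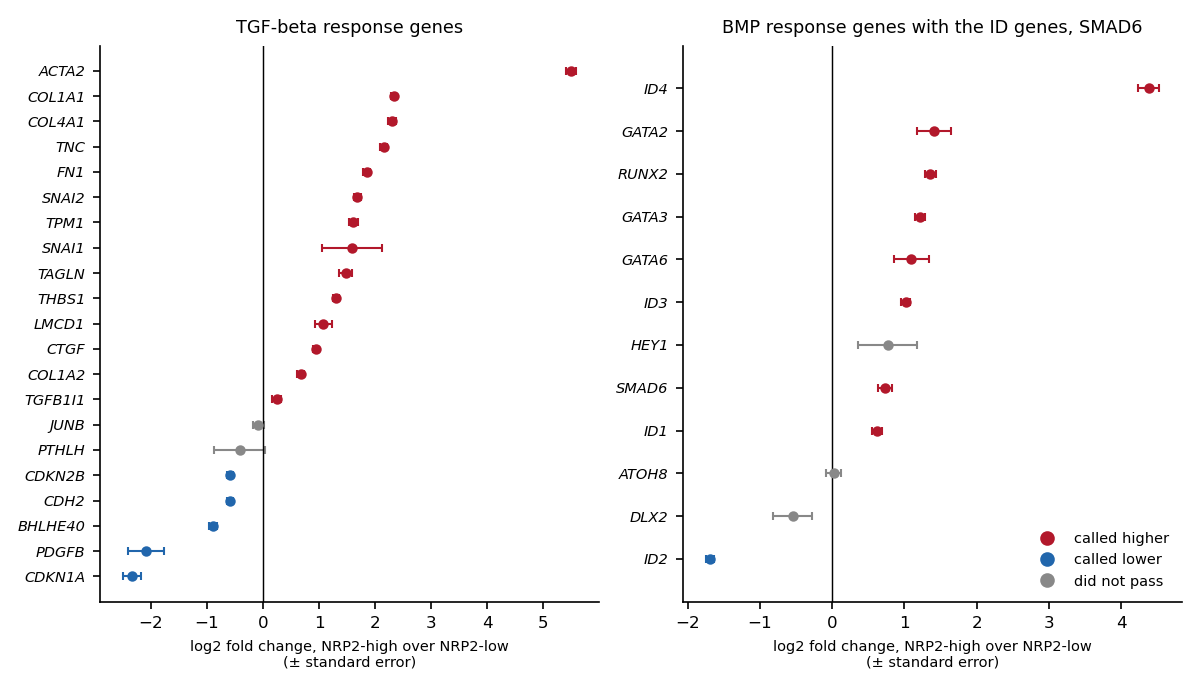
Log2 fold change (NRP2-high over NRP2-low, x axis, with standard errors) of tested TGF-beta response genes (left) and of tested BMP response genes with the ID genes and SMAD6 (right). ACTA2 and CDKN1A mark the ends on the left, at 5.49 and -2.34, and ID2 at -1.69 is the only called fall on the right.

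Across 14 other settings (other tests, scalings, filters, a replicate block and each library left out), the 35 called members kept their direction and 27 of them, 17 higher and 10 lower, kept the call wherever a value was given. These 27 include all 18 members changed at least 2-fold. The other 8, *LTBP4*, *INHBA*, *SMAD1*, *ACVR1B*, *GDF11*, *SMAD2*, *SMAD3* and *SMAD7*, lost the call in at least 1 setting, that of *SMAD1* on the TPM and FPKM scales alone. In DESeq2, *INHBA* and *LTBP4* (adjusted p = 0.12 each), *SMAD7* (0.18), *ACVR1B* (0.21) and *GDF11* (0.24) did not pass. The direction of the changes of at least 2-fold thus held under each of these settings that gave a value. For *INHBB* and *BMPR1B* this says little, since they passed the main filter only through the population where they were higher.

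**Figure D5:**
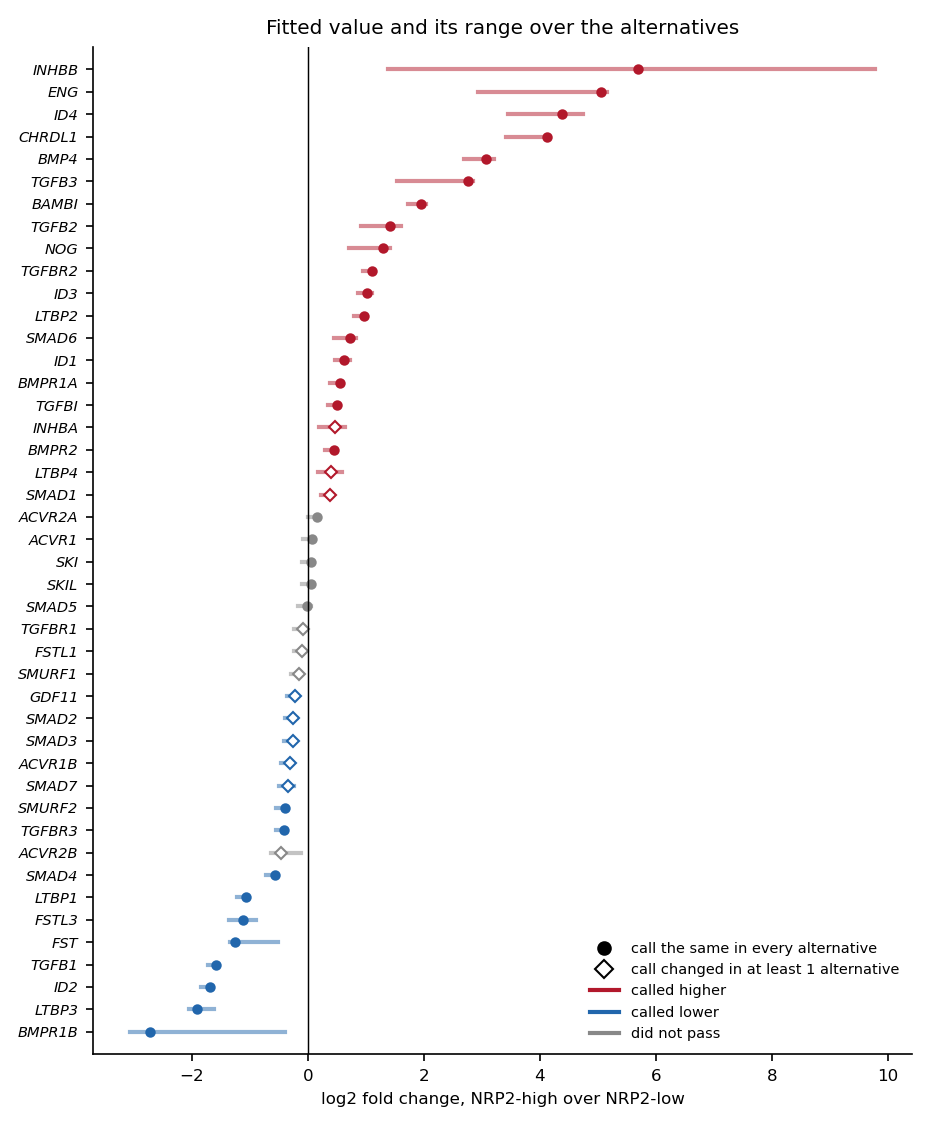
Log2 fold change of each tested member (x axis, NRP2-high over NRP2-low) as fitted, with a line over its lowest and highest value in 14 other settings. Open diamonds mark members whose call changed in at least 1 setting, all within 0.47 of 0, and no line of a called member crosses 0.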

How the data were processed

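RNA of BT549 cells was sequenced in 4 libraries after sorting on surface NRP2. The authors aligned paired-end reads of stranded polyA libraries to hg38 with STAR and counted exon fragments above a mapping quality limit per gene with featureCounts, and the counts were deposited without normalization. The authors deposited TPM and FPKM values computed from these counts with the gene lengths of the table. The annotation release and the strand setting are not given in the sources used here.

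The counts were tested over the whole table with edgeR 4.0.16 in R 4.3.3 (filterByExpr, TMM factors, quasi-likelihood F test, no covariate), with Benjamini-Hochberg adjustment over 15083 genes and a threshold of 0.05. CPM use effective library sizes, the SD is over 2 libraries, and standard errors were derived by dividing each log2 fold change by the root of its F statistic. TPM served for levels per length, which depend on the table's gene lengths. The members, the role lists and the other lists, written from general knowledge, were chosen with earlier results of these data known. Named were all members, and of each other list up to 3 higher and 3 lower called genes of mean log2 CPM of at least 3. Outside this rule, *ATOH8* was named although it was not called. The other exceptions are genes marked as named after their values were seen and genes named for how they passed the filter. Listed genes were matched by symbol or gene ID (*CCN2* is *CTGF* in the table), and 1 gene of the TGF-beta response list is not reported here and was left out of its counts and median. Alternatives were DESeq2 1.42.0, limma-voom (limma 3.58.1), RLE factors, no mitochondrially encoded and 10 most abundant genes, no filter, at least 50 counts in 2 libraries, a replicate block, each library left out, and limma on log2(TPM + 1), log2(TPM + 0.1) and log2(FPKM + 1). The edgeR step was tested on simulated data. Promoter windows came from RefSeq (GRCh38.p14), with entries for 45 of 49 members, and exon overlaps from GENCODE v44. Counts of 0 and depth limits cover counting error only.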

Additional observations from a re-analysis of the deposited data

How the results depend on the processing

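The counts of members called ran from 17 to 20 higher and from 10 to 17 lower over the 14 settings, against 20 higher and 15 lower as reported, with 30 called in all without NRP2-low replicate 1 or replicate 2 and in DESeq2. Of 615 member values under another setting, 576 kept call and direction, 31 lost the call, 8 gained it and 0 turned. Over all genes, the count of higher calls was 2594 on log2(TPM + 1) and 2556 on log2(TPM + 0.1), against 4354 in counts. These scales carry no TMM factor and move the median log2 fold change of the tested genes to -0.14 and -0.16, against -0.01 (the cause was not tested). Higher genes were then 35.9% and 36.0% of the calls (40.2% in FPKM), against 51.0%. On these scales the pseudocount also shrinks low genes: *INHBB* was at 2.62, 5.01 and 1.39 and *BMPR1B* at -0.99 in TPM + 1 and -0.39 in FPKM + 1. Replicate numbers are shared by both populations, and whether same-numbered libraries were paired is not given in the sources used here. Deviations of same-numbered libraries had a correlation of -0.01 over genes. That value cannot settle the pairing, since the NRP2-low libraries differed little from each other (chi-square per degree of freedom 1.59). With the replicate block 20 members were higher and 15 lower, and 4509 genes higher and 4371 lower. Depth limits *BMP2*, *BMP6*, *BMP7*, *CHRD* and *GREM1*, which could not be compared.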
